A study of Mus musculus with 13 samples.

Results

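The 10 genes described here encode the inhibin and activin system as it is set up in the testis: the hormone subunits *Inha* (inhibin α), *Inhba* (βA) and *Inhbb* (βB), the activin-binding proteins *Fst* and *Fstl3*, the activin receptors *Acvr1b*, *Acvr2a* and *Acvr2b*, the inhibin co-receptor *Tgfbr3* and the signal transducer *Smad2*. They were taken by exact name from the deposited count table, where all 10 were found among 27111 features with a gene name (54281 features in all), and all 10 passed the filter on low counts that left 14421 genes in the fit. Levels were measured by RNA sequencing in Sertoli cells, the somatic cells of the seminiferous tubule that nurse germ cells. The cells came from testes of adult wild-type C57Bl/6J males, 3 to 5 months old, and were enriched by sorting on diploid DNA content, large size and strong MitoTracker staining. The 6 control males had been left undisturbed as pups. The 7 MSUS males had gone through MSUS, in which maternal separation and stress of the dam are combined and both come at unpredictable times: from postnatal day 1 to 14 the pups were taken from their dams for 3 h a day, and the dams meanwhile had either a 5-min swim at 18 °C or 20 min of restraint. Each sample is 1 male and is named by its group and the number in its label. Litters and cages were not analysed here, so mice counted as separate samples may share a litter.

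Inhibins and activins are dimers built from a shared pool of β chains. An α chain joined to a β chain gives inhibin, which passes from the Sertoli cell into the blood and holds back follicle-stimulating hormone release from the pituitary, and inhibin B (α with βB) is the main circulating form in adult males. A β chain joined to another β chain gives activin, which binds the type II receptors ACVR2A and ACVR2B, recruits the type I receptor ACVR1B and leads to phosphorylation of SMAD2 and SMAD3. Follistatin and follistatin-like 3 trap activin outside the cell, and betaglycan (*Tgfbr3*) lets inhibin occupy type II receptors without a signal.

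The RNA of the sorted cells was rich in *Inha* and *Inhbb* and poor in *Inhba*, in control and MSUS males alike. Per length of transcript, *Inha* stood 4.67-fold above *Inhbb* and 119-fold above *Inhba* in controls, and 4.65-fold and 101-fold in MSUS males. These folds use the median length of each gene's coding transcripts, and with the longest transcript *Inha* stood 193-fold and 162-fold above *Inhba*. None of the 10 genes passed the test between the groups: 0 of 10 had p below 0.05 in limma with voom, the fit across all genes, beside 5.42% of all genes tested. After Benjamini-Hochberg adjustment 0 of the 14421 genes passed 0.05 (781 had an unadjusted p below 0.05 with limma, 793 with edgeR and 835 with DESeq2, and neither of those tools called a gene after adjustment). The groups overlapped for all 10 genes, while 0.132% of all genes tested had groups with no overlap.

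Libraries held 12701776 to 18649945 estimated counts, of which features with no gene name, left out here, held 20.7% to 26.7%. The cells carried the markers of their label: the 5 Sertoli cell markers (*Amhr2*, *Clu*, *Ctsl*, *Rhox5*, *Sox9*) had a mean level of 10.18 ± 0.10 log2 CPM (SD, n = 6) in controls and 10.15 ± 0.09 (SD, n = 7) in MSUS samples. RNA of elongated spermatids was also present, with a mean marker level of 7.90 ± 0.23 log2 CPM (SD, n = 6) in controls and 8.09 ± 0.46 (SD, n = 7) in MSUS samples. CPM is the standard unit of counts scaled to a common library total, here over named genes and adjusted between libraries by TMM normalization, and log2 CPM adds a prior count of 2.

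The stretches of genome just upstream of both β subunit genes are shown because these genes stood far apart in level. *Inhba* lies on chromosome 13 (GRCm38, chr13:16011851-16031621, + strand) and *Inhbb* on chromosome 1 (chr1:119415465-119422248, − strand). The runs are the 250 bases before the annotated start of each gene, from RefSeq on GRCm38.p6, at chr13:16011601-16011850 (+ strand) and chr1:119422249-119422498 (− strand), printed 5′ to 3′ with each CG dinucleotide in capitals.
Inhba: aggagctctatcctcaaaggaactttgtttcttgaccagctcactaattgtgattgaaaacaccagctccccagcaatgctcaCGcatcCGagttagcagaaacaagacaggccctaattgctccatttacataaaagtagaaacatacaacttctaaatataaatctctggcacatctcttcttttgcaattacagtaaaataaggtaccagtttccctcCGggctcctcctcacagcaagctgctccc
Inhbb: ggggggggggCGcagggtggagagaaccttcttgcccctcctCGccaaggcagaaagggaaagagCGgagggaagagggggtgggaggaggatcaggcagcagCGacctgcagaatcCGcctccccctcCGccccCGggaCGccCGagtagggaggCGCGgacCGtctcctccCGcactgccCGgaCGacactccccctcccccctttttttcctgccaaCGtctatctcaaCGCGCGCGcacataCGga
The *Inhba* run held 3 CG dinucleotides at a G+C content of 43.2%, and the *Inhbb* run held 21 at 68.0%. Over 32851 such runs of mouse genes the median was 6 CG and 52.4% G+C, and 83.7% of runs had fewer CG than that of *Inhbb*, against 29.0% for *Inhba*. Of the 10 genes, 7 had an entry in the table of upstream sequences. These counts describe the sequence, and no measurement here bears on its use.

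Among the hormone subunits, *Inha* (chr1:75507077-75510366) had the highest level, with a control mean of 470 CPM beside 289 CPM for *Inhbb*, before any correction for length. In controls its level ran from 8.71 (control 10) over a median of 8.82 to 9.15 log2 CPM (control 24), and in MSUS males from 8.64 (MSUS 11) over 8.82 to 8.96 log2 CPM (MSUS 23). The medians of both groups fell at the same value, and 2 of 7 MSUS males lay below every control. The fitted log2 fold change was −0.07 ± 0.07 (SE), with a 95% confidence interval from −0.21 to 0.08 (limma adjusted p = 0.920). As a linear fold the interval ran from 0.864 to 1.06.

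*Inhbb*, the β chain of inhibin B and activin B, followed. Control levels were tightly packed, from 8.12 (control 12) over a median of 8.17 to 8.24 log2 CPM (control 14). MSUS levels were spread around them, from 7.76 (MSUS 1) over 8.07 to 8.50 log2 CPM (MSUS 26), with 4 males below every control and 2 above every control. The SD was 0.05 log2 CPM in controls and 0.22 in MSUS males. A larger SD in MSUS, by any amount, was found for 5 of the 10 genes and for 64.5% of all genes tested. How often the SDs differed as much as for *Inhbb* was not counted. The log2 fold change of *Inhbb* was −0.06 ± 0.08 (SE), with a confidence interval from −0.23 to 0.12 (limma adjusted p = 0.940).

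*Inhba*, the β chain of inhibin A and activin A, was counted only 77 to 190 times per sample. Its level ran from 3.00 (control 14) over a median of 3.51 to 3.70 log2 CPM (control 10) in controls, and from 3.25 (MSUS 11) over 3.48 to 4.01 log2 CPM (MSUS 26) in MSUS males. Controls fell into a low pair (control 12 and control 14, at 3.04 and 3.00 log2 CPM) and 4 higher animals, and 6 of 7 MSUS males exceeded the control mean. The log2 fold change was 0.17 ± 0.15 (SE), with a confidence interval from −0.15 to 0.50 (limma adjusted p = 0.899). The estimated counts of *Inhba* were not whole numbers in any of the 13 samples (tolerance 0.005), so part of its reads were shared with another annotated feature, which was not identified. B230303A05Rik and Gm48444 are annotated on the opposite strand across this gene. Opposite-strand genes also overlap *Fst* (Gm47040), *Fstl3* (*Prss57*), *Acvr2a* (*Orc4*), *Acvr2b* (Gm47320) and *Tgfbr3* (Gm8145). On the same strand, Mir6962 overlaps *Acvr1b*, and Gm43422, Gm43423 and Gm42900 overlap *Tgfbr3*. By the same tolerance, counts were not whole in 3 samples for *Tgfbr3* and in 1 for *Fst*. The library kit keeps strand, but the strand setting used for counting is not given in the sources used here.

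**Figure D1:**
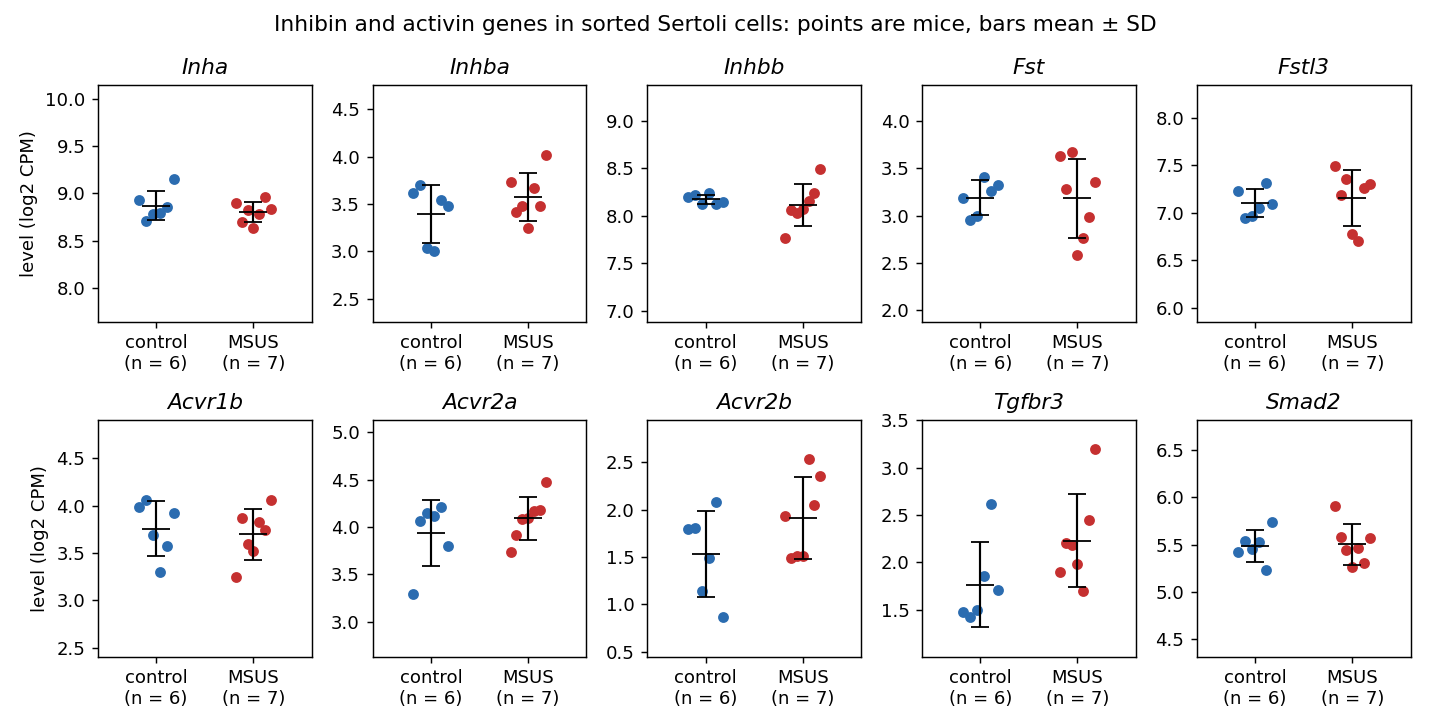
Levels of the 10 genes in log2 CPM (vertical axes, all panels spanning the same range) for each of 6 control (blue) and 7 MSUS (red) males, with bars for mean ± SD. The groups overlap in every panel, *Inhbb* is tighter in controls (SD 0.05) than in MSUS males (SD 0.22), and the highest *Tgfbr3* point is MSUS 26 at 3.20 log2 CPM.

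The binding proteins were dominated by *Fstl3* (chr10:79777272-79782630). Its control levels ran from 6.95 (control 10) over a median of 7.07 to 7.32 log2 CPM (control 22), and its MSUS levels from 6.71 (MSUS 13) over 7.26 to 7.49 log2 CPM (MSUS 1). MSUS males reached beyond the controls on both sides, with 2 below and 2 above all of them. *Fst* (chr13:114452290-114458951), the gene of follistatin, had 63 to 141 counts per sample. It lay between 2.95 (control 10) and 3.41 log2 CPM (control 14) in controls, around a median of 3.23, and between 2.58 (MSUS 11) and 3.67 log2 CPM (MSUS 6) in MSUS males, around 3.27. Here too 2 MSUS males fell below and 2 above all controls. Neither gene passed the test, with changes on the log2 scale of 0.05 ± 0.11 (SE) for *Fstl3* (limma adjusted p = 0.954) and 0.02 ± 0.18 (SE) for *Fst* (limma adjusted p = 0.986). The intervals ran from −0.19 to 0.30 and from −0.35 to 0.40 on the log2 scale. Per length of transcript *Fstl3* exceeded *Fst* 11.4-fold in controls and 11.9-fold in MSUS males, or 21.9-fold and 22.8-fold with the longest transcript as length.

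Of the receptors, *Acvr2a* (chr2:48814109-48903269) and *Acvr1b* (chr15:101174067-101213684) were expressed at low levels and *Acvr2b* (chr9:119402118-119434995) at a still lower one. *Acvr2a* ran from 3.29 (control 9) over a median of 4.09 to 4.21 log2 CPM (control 22) in controls, and MSUS males covered 3.74 (MSUS 1) to 4.47 log2 CPM (MSUS 26) around a median of 4.09. Both medians were again the same, and control 9 stood below all other mice. Without control 9 the log2 fold change of *Acvr2a* was 0.018. For *Acvr1b*, the type I receptor, controls covered 3.30 (control 14) to 4.06 log2 CPM (control 10) with a median of 3.81, and MSUS males 3.25 (MSUS 1) to 4.06 log2 CPM (MSUS 26) with a median of 3.74. The log2 fold change was 0.14 ± 0.15 (SE) for *Acvr2a* (interval −0.17 to 0.46, limma adjusted p = 0.920) and −0.07 ± 0.15 (SE) for *Acvr1b* (interval −0.39 to 0.24, limma adjusted p = 0.954).

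*Acvr2b* had 17 to 62 counts per sample, the lowest of the 10 genes. Controls lay between 0.87 (control 24) and 2.08 log2 CPM (control 22) with a median of 1.64, and MSUS males between 1.48 (MSUS 5) and 2.53 log2 CPM (MSUS 13) with a median of 1.93. Only 4 of 7 MSUS males were above the control mean, 2 of them above every control. Its log2 fold change of 0.37 ± 0.26 (SE) had a confidence interval from −0.17 to 0.92 (limma adjusted p = 0.879). No change was detected at this depth and spread, and the interval holds values of both signs.

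*Smad2*, which carries the activin signal to the nucleus, had a smaller SD in both groups than any of the receptor genes. Controls ran from 5.23 (control 22) over a median of 5.49 to 5.74 log2 CPM (control 24), and MSUS males from 5.26 (MSUS 11) over 5.46 to 5.91 log2 CPM (MSUS 1). Only MSUS 1 exceeded every control. Its log2 fold change was 0.03 ± 0.10 (SE), with an interval from −0.18 to 0.24 (limma adjusted p = 0.972).

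*Tgfbr3*, the co-receptor of inhibin (chr5:107106570-107289629, − strand), had the smallest p of the 10, though above 0.05. In controls its level ran from 1.43 (control 10) over a median of 1.61 to 2.62 log2 CPM (control 22), and in MSUS males from 1.70 (MSUS 13) over 2.19 to 3.20 log2 CPM (MSUS 26). It was above the control mean in 6 of 7 MSUS males, yet control 22 lay above all MSUS males but MSUS 26. The log2 fold change was 0.48 ± 0.27 (SE), with a confidence interval from −0.08 to 1.05 (limma adjusted p = 0.878). Counts were low, from 30 to 107 per sample, and were not whole in 3 samples (control 9, MSUS 1 and MSUS 26). The value moved with single animals. It was 0.68 without control 22 and 0.58 without MSUS 13, where the unadjusted p was below 0.05 (limma adjusted p = 0.867 and 0.686), and 0.31 without MSUS 26, where it was not.

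Beside *Tgfbr3*, the RNA of other cell types varied between the libraries. Peritubular myoid cells are the smooth muscle-like cells around the tubule, and 4 of their 5 listed markers (*Acta2*, *Myh11*, *Des*, *Tagln*) passed the count filter, while *Cnn1* had 0 counts in 5 samples. Their summed level was low and uneven, at 8.02 to 62.8 CPM in controls and 11.5 to 92.6 CPM in MSUS samples. The mean log2 CPM of the 4 genes was 1.69 ± 0.98 (SD, n = 6) in controls and 2.27 ± 1.19 (SD, n = 7) in MSUS samples (exact permutation test, two-sided p = 0.354). With the group means removed, *Tgfbr3* followed this score over the 13 mice (Pearson r = 0.78, permutation p = 0.00113, adjusted 0.0203, Spearman rho = 0.84, permutation p = 0.00052, adjusted 0.0234, adjustment over the 90 relations described with the other genes), and r was 0.85 without control 22 and MSUS 5, the animals farthest from the median score. Its r was 0.94 within controls and 0.67 within MSUS males. With the score as a covariate the log2 fold change of *Tgfbr3* was 0.24 (limma adjusted p = 0.969). All 4 elongated spermatid markers passed the filter, and their summed level was 845.7 to 1375 CPM in controls and 728.3 to 1772 CPM in MSUS samples. *Tgfbr3* also ran opposite to the elongated spermatid score (r = −0.86, permutation p = 0.00027, adjusted 0.0203, rho = −0.74, permutation p = 0.00526, adjusted 0.0789), with r = −0.63 without control 22 and MSUS 26. With that score as covariate the log2 fold change was 0.67 (limma adjusted p = 0.447). In bulk RNA, more cells of a type and more RNA per cell cannot be told apart.

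**Figure D2:**
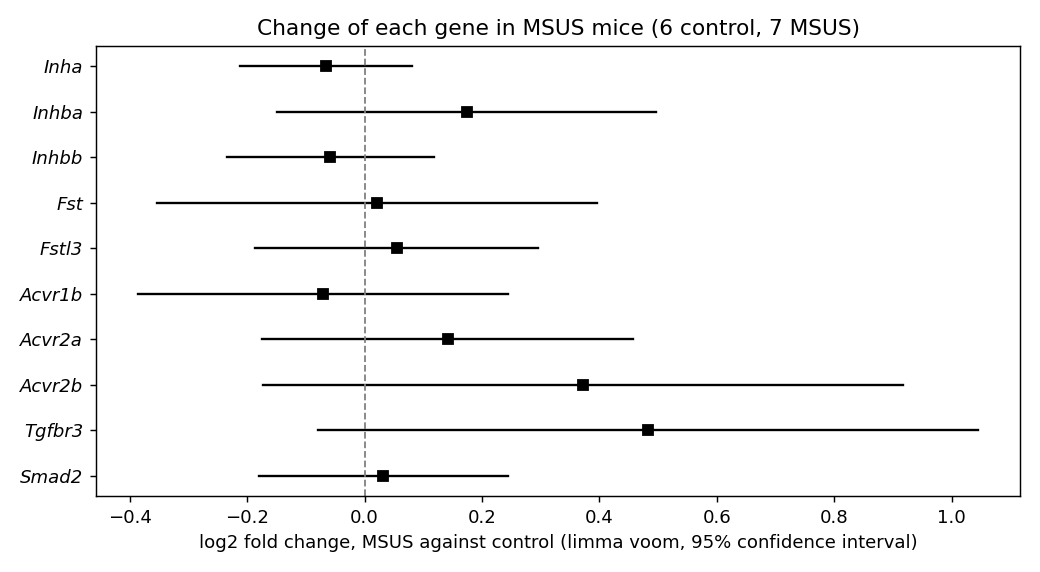
Log2 fold change of each gene in MSUS against control males (horizontal axis) from limma voom, with squares for the estimates and lines for the 95% confidence intervals. All 10 intervals include 0, and the widest are those of *Tgfbr3* (−0.08 to 1.05) and *Acvr2b* (−0.17 to 0.92), which had the lowest counts.

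Taken as a list, 7 of the 10 genes had a positive and 3 a negative log2 fold change (49.5% of all genes tested were positive), with a median of 0.04 beside −0.0017 over all genes tested. The number of positive values was 5 with the peritubular myoid score as covariate, and 6 or 7 with single mice left out. In the main fit none of the 10 values passed the test: 0 of 10 were higher in MSUS males with p below 0.05, beside 3.02% of all genes tested, and 0 of 10 were lower, beside 2.4%.

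Setting the genes in order of abundance needs a correction for length, and levels were therefore also expressed as log2 CPM per kb, with the median length of each gene's protein-coding transcripts. In controls *Inha* came first at 8.31 ± 0.16 log2 CPM per kb (SD, n = 6), above 98.6% of the 13377 genes with a length. *Fstl3* at 6.13 ± 0.15 and *Inhbb* at 6.09 ± 0.05 log2 CPM per kb (SD, n = 6) came next and could not be ordered, since *Fstl3* was higher in 7 of 13 mice with a mean difference of 0.11 ± 0.31 (SD). *Smad2* followed at 5.10 ± 0.17 and *Fst* at 2.62 ± 0.18 log2 CPM per kb (SD, n = 6), and each stood below its upper neighbour in 13 of 13 mice.

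At the lower end, *Acvr1b*, *Acvr2a* and *Inhba* lay at 1.61 ± 0.29, 1.43 ± 0.35 and 1.41 ± 0.30 log2 CPM per kb (SD, n = 6), closer to each other than the spread between mice. *Acvr2b* at 0.46 ± 0.46 log2 CPM per kb (SD, n = 6) was below *Inhba* in 13 of 13 mice. *Tgfbr3* at 0.00 ± 0.45 came last and was below *Acvr2b* in 10 of 13 mice. The order depended in part on the transcript taken as the length: with the longest one, *Smad2* fell to 2.47 and *Inhba* to 0.72 log2 CPM per kb, *Inhba* was below *Acvr2a* in 12 of 13 mice, and *Fst* (1.68) was no longer separable from *Acvr1b*, being higher in 6 of 13. *Inha*, *Inhbb* and *Fstl3* have 1 protein-coding transcript each and kept their values.

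**Figure D3:**
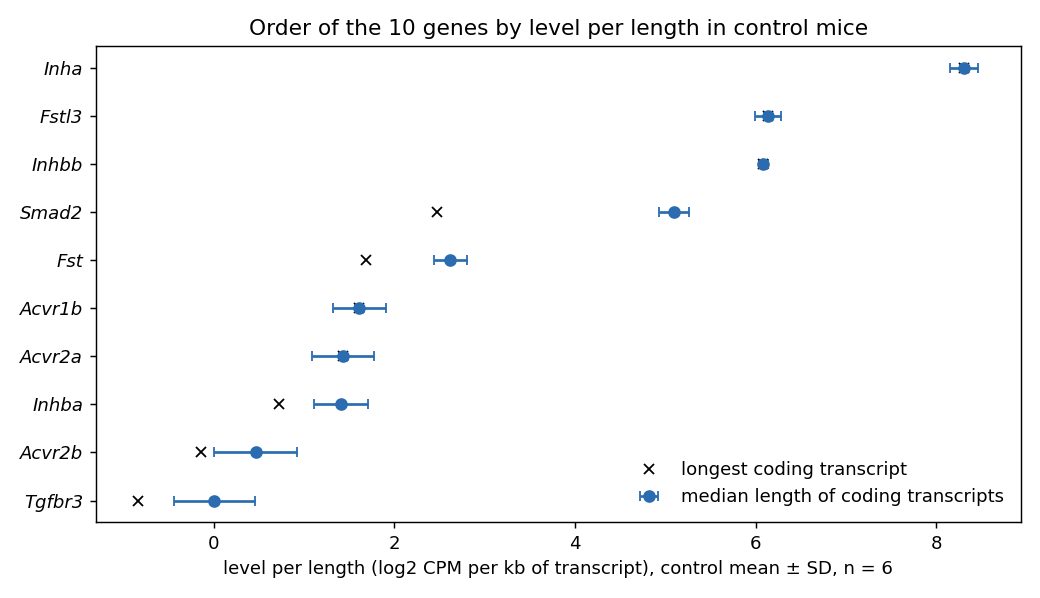
Level per length in controls (log2 CPM per kb of transcript), with blue points for the mean over 6 mice and bars for the SD, at the median transcript length, and crosses at the longest transcript. *Inha* is alone at the top (8.31), *Fstl3* and *Inhbb* coincide near 6.1, and *Smad2* moves most with the length used (5.10 to 2.47).

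The balance between chains was compared in RNA only, as the log2 ratio of 2 genes per kb within each mouse. Such a ratio does not depend on the scaling between libraries. Protein was not measured, so the ratios below are of RNA and not of the chains themselves. Differences were tested by exact permutation over all 1716 splits into 6 and 7 mice, two-sided, and the smallest p this allows is 0.000583. The α to βB ratio, the balance behind inhibin B, had nearly the same mean in both groups. It was 2.22 ± 0.18 (SD, n = 6) in controls and 2.22 ± 0.24 (SD, n = 7) in MSUS males (exact permutation p = 0.944, adjusted over 6 ratios 0.944). Controls spanned 2.02 to 2.54 and MSUS males 1.86 to 2.66.

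Ratios with *Inhba* had lower means in MSUS males, though not beyond the spread between mice. The log2 α to βA ratio was 6.90 ± 0.31 (SD, n = 6) in controls, ranging from 6.43 to 7.22, and 6.65 ± 0.22 (SD, n = 7) in MSUS males, ranging from 6.24 to 6.91. It lay below the control mean in 6 of 7 MSUS males, for a difference of −0.25 (exact permutation p = 0.122, adjusted 0.523). Without control 10 the difference was −0.34 (exact permutation p = 0.0303, not adjusted), the lowest p of 13 tests with 1 mouse left out. The next lowest was 0.0909 (exact permutation, not adjusted), without MSUS 23. The log2 βB to βA ratio was 4.68 ± 0.30 (SD, n = 6) in controls and 4.44 ± 0.26 (SD, n = 7) in MSUS males, again below the control mean in 6 of 7 (difference −0.24, exact permutation p = 0.174, adjusted 0.523). In linear terms βB RNA exceeded βA RNA 25.6-fold in controls and 21.7-fold in MSUS males, or 41.2-fold and 35.0-fold with the longest transcript as length. Both ratios share *Inhba* and are not separate evidence.

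Against both β chains together, *Inha* stood 4.50-fold higher in controls and 4.44-fold higher in MSUS males, a log2 difference of −0.02 (exact permutation p = 0.879, adjusted 0.944). The sum of the β chains was close to the sum of the binding proteins *Fst* and *Fstl3*: the log2 ratio was −0.11 ± 0.16 (SD, n = 6) in controls and −0.21 ± 0.40 (SD, n = 7) in MSUS males (exact permutation p = 0.607, adjusted 0.910). MSUS males covered a wider range, from −0.88 to 0.28, than controls, from −0.36 to 0.10. Between the type II receptors, *Acvr2a* exceeded *Acvr2b* by 0.97 ± 0.57 (SD, n = 6) on the log2 scale in controls and by 0.74 ± 0.37 (SD, n = 7) in MSUS males (exact permutation p = 0.389, adjusted 0.779). With the longest transcript as length these means were 1.57 and 1.34.

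**Figure D4:**
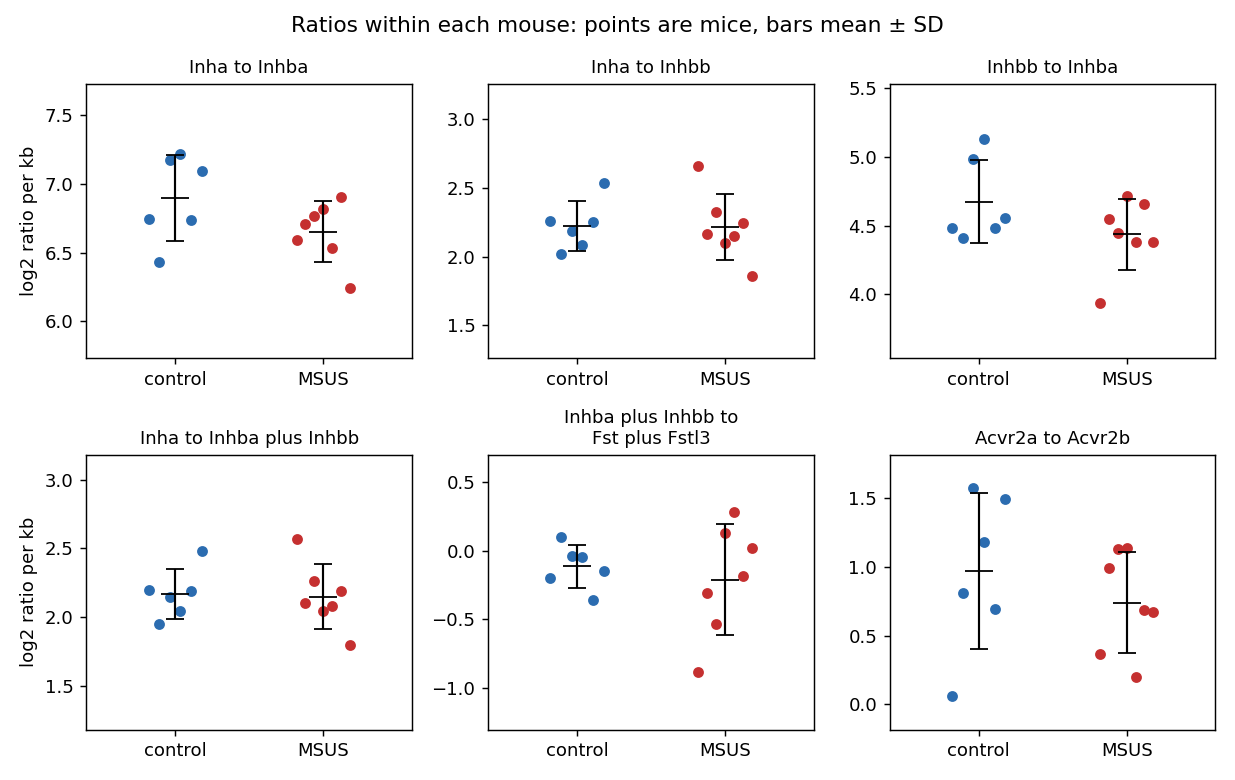
Log2 ratios per kb of transcript within each mouse (vertical axes, all panels spanning the same range) for 6 control (blue) and 7 MSUS (red) males, with bars for mean ± SD. The α to βB ratio centres on 2.22 in both groups, the α to βA and βB to βA ratios sit lower in MSUS males by 0.25 and 0.24 with overlap, and 1 MSUS male has a βB to βA ratio of 3.93.

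The subunits did not detectably vary together between mice of a group. With group means removed, r over the 13 mice was 0.30 for *Inha* and *Inhba* (permutation p = 0.314, rho = 0.34, permutation p = 0.255), −0.03 for *Inha* and *Inhbb* (p = 0.928, rho = 0.13, p = 0.681) and 0.28 for *Inhba* and *Inhbb* (p = 0.376, rho = 0.24, p = 0.438). None of the 3 passed adjustment, the lowest adjusted p of an r being 0.564 by permutation. Without the 2 mice farthest from the median, r for *Inha* and *Inhba* was 0.47.

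The strongest co-variation among all 45 pairs, examined after the values were seen, was between both binding proteins. *Fst* and *Fstl3* had r = 0.84 over the 13 mice (permutation p = 0.00041, adjusted 0.0184), with r = 0.50 within controls and 0.90 within MSUS males. By rank the relation did not pass (rho = 0.71, permutation p = 0.00809, adjusted 0.364), and r was 0.57 without MSUS 11 and MSUS 13, the males with the lowest *Fst*. The other 44 pairs did not pass by either measure.

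Each gene was also set against the mean level of 9 lists of cell type markers, giving 90 relations, a set examined after the values were seen, of which 7 passed adjustment by Pearson's r, 5 by Spearman's rho and 5 by both. *Inha* followed the Sertoli cell markers (r = 0.82, adjusted permutation p = 0.0203, rho = 0.86, adjusted permutation p = 0.0234), and r was 0.79 without control 24 and MSUS 1. *Smad2* ran opposite to the spermatocyte markers (r = −0.83, adjusted permutation p = 0.0203, rho = −0.79, adjusted 0.0394). *Fst* did so as well (r = −0.75, adjusted permutation p = 0.0337, rho = −0.80, adjusted 0.036). *Acvr1b* followed *Mrc1*, the only macrophage marker that passed the filter (r = 0.77, adjusted permutation p = 0.0203, rho = 0.80, adjusted 0.036). The other 5 markers of that list were at 0 to 10 counts per sample, so that *Mrc1* does not stand for macrophages here. *Inhbb* and *Mrc1* had r = 0.82 (adjusted permutation p = 0.0337) but rho = 0.54 (adjusted 0.391), and r was 0.25 without MSUS 1 and MSUS 26. Within controls their r was 0.06, and within MSUS males it was 0.91. Both levels of a relation share the TMM scaling factor of their library. That factor was lowest in MSUS 23 (0.952) and control 24 (0.958), which had the highest *Inha* of their groups. It was highest in MSUS 11 (1.059), which had the lowest *Inha* and Sertoli cell score of the MSUS males. The parts of cell composition and of this scaling in these relations were not tested.

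**Figure D5:**
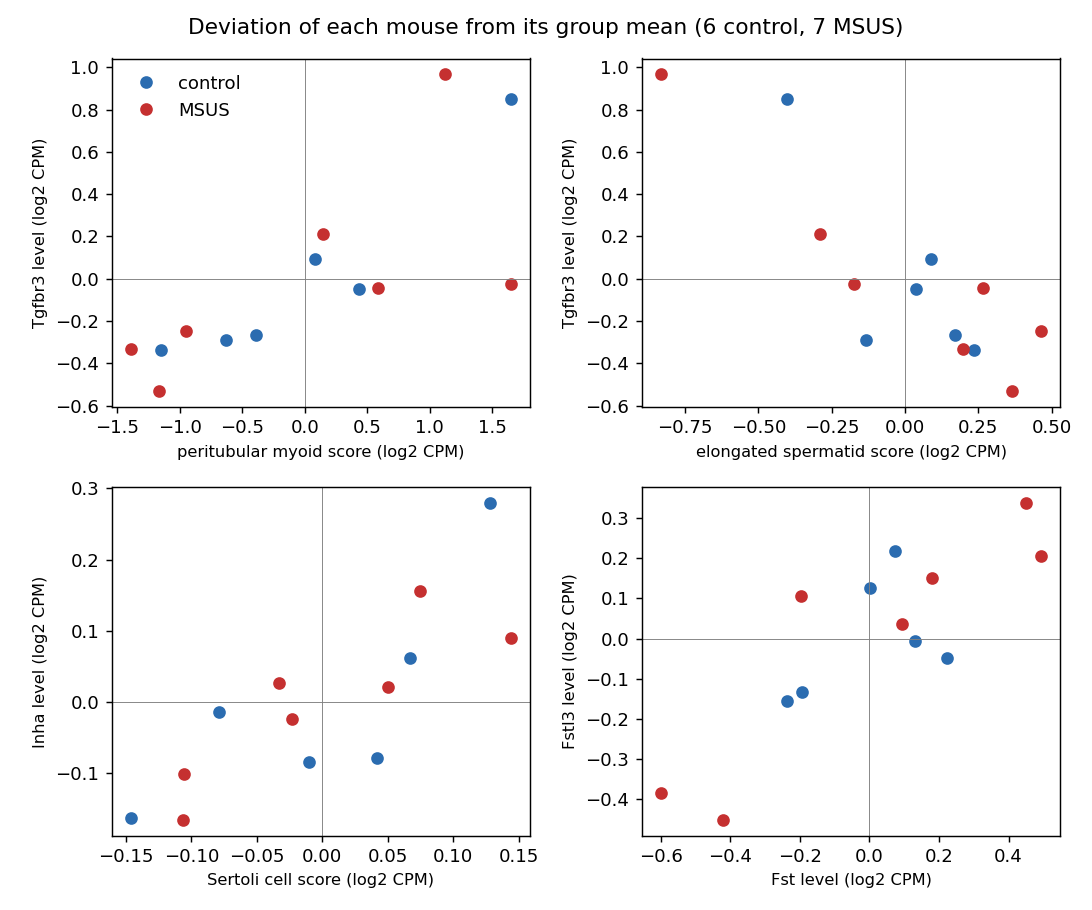
Deviation of each mouse from its group mean, in log2 CPM, for *Tgfbr3* against the peritubular myoid and elongated spermatid scores, *Inha* against the Sertoli cell score and *Fstl3* against *Fst*, with 6 control (blue) and 7 MSUS (red) males. Points rise in 3 panels (r = 0.78, 0.82 and 0.84) and fall in the panel of elongated spermatids (r = −0.86), where MSUS 26 and control 22 have the highest *Tgfbr3* deviations.

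Other genes of the pathway were read from the same fit, from a list of 54 of which 36 passed the count filter. Of these, 22 had positive and 14 negative log2 fold changes (49.5% of all genes tested were positive), and 0 had p below 0.05, beside 5.42% of all genes tested. Their median was 0.04, beside −0.0017 over all genes tested. Among ligands of the family, *Tgfb1* (−0.11 ± 0.07, SE), *Tgfb3* (0.01 ± 0.06) and *Gdf11* (0.21 ± 0.21) were the most abundant of 4 tested, and *Inhbc*, *Inhbe*, *Nodal* and *Mstn* were among the 8 ligands too low to test. Of 5 receptors or co-receptors, the most abundant were *Tgfbr1* (log2 fold change 0.08 ± 0.07, SE), *Acvr1* (0.03 ± 0.15) and the decoy *Bambi* (0.05 ± 0.15). The antagonist *Wfikkn1* had a value of 0.44 ± 0.39 (SE). The convertases that cut such precursors had log2 fold changes of 0.04 ± 0.10 (*Furin*), −0.13 ± 0.11 (*Pcsk6*) and 0.24 ± 0.32 (*Pcsk5*), each with its SE.

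Inside the cell, *Ppm1a*, a phosphatase of SMAD2 and SMAD3, had the highest level of 13 signalling genes (7.48 ± 0.09 log2 CPM in controls, SD, n = 6), and log2 fold changes over the 13 ran from −0.22 to 0.22. *Trim33* (0.08 ± 0.08, SE) and *Tgif1* (0.01 ± 0.07) came next in level. The response genes *Ccn2* (0.15 ± 0.19, SE) and *Tgfbi* (0.14 ± 0.34) likewise missed the threshold. Of the regulators of inhibin genes, *Gata4* had the highest level and the smallest p of the list. It stood at 7.95 ± 0.07 log2 CPM (SD, n = 6) in controls and 7.82 ± 0.16 (SD, n = 7) in MSUS males, a log2 fold change of −0.13 ± 0.07 (SE, limma adjusted p = 0.878). *Nr5a1*, a nuclear receptor of steroidogenic cells and Sertoli cells, had a log2 fold change of −0.04 ± 0.06 (SE).

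Finally, the genes whose levels followed each subunit most closely were ranked by Pearson's r of log2 CPM with group means removed, over 13 mice and 13204 genes, as a description with no test. For *Inha* they were *Psap* (r = 0.91), which encodes the lysosomal protein prosaposin, *Mgst1* (0.90), *Ppt2* (0.89), *Slc25a45* (0.89) and *Kdelr2* (0.89). For *Inhba* they included *Lpar2* (0.88), *Garem1* (0.87), *Fam210a* (0.86) and *Pitpna* (0.85). For *Inhbb* they were *Sept11* (0.95), *Sall3* (0.94), *Tsc22d4* (0.91), *Fam234b* (0.90) and *Gas2l1* (0.90). The values are the highest of 13204 over 13 mice and were chosen for being so, and 9.24%, 8.79% and 9.47% of genes had r above 0.5 with *Inha*, *Inhba* and *Inhbb*.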

How the data were processed

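RNA from FACS-enriched Sertoli cells (5 ng per library, SMARTer stranded kit) was sequenced for 6 control and 7 MSUS males. The authors trimmed reads with Trim Galore 0.6.5, quantified GENCODE transcripts with Salmon 1.1.0 and deposited estimated counts per gene, not normalized. The gene naming step is not given in the sources used here. Estimated counts were rounded. The 27170 features with no gene name, 20.7% to 26.7% of counts per sample, were left out, and the table had 0 columns without a sample. Salmon divides ambiguous reads, which affects genes with shared sequence such as *Inhba*.

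Genes passing filterByExpr (edgeR 4.0.16) were tested by limma 3.58.1 with voom and TMM in R 4.3.3, as in the study's methods, with Benjamini-Hochberg adjustment over all genes tested. edgeR's quasi-likelihood test, DESeq2 1.42.0, sample quality weights, other scalings and filters, marker scores as covariates and leaving out each sample were alternatives. The limma and edgeR fits were run on simulated counts, while the permutation tests, correlations and marker scores were not. Ratios were compared by exact permutation tests. Correlations used 100000 permutations and were two-sided. Marker scores are mean log2 CPM. Coordinates and lengths are from GENCODE vM21 (GRCm38).

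The genes and lists were chosen with earlier results of these data known. Named genes were the 10 genes, listed pathway genes with p below 0.05 or otherwise up to 3 per role by level, and the 5 genes most correlated with each subunit. Some genes that this rule names are not reported here. Spread between mice, and counting error for the genes with few counts, limit the precision.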

Additional observations from a re-analysis of the deposited data

Results flagged for a closer look

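Of 32 groups of values examined for a single stray animal by Dixon's test, 2 were picked out, and about 1 in 20, or 1.6, would be by chance. The *Tgfbr3* level of control 22 was 2.617 log2 CPM, while the other 5 controls lay between 1.428 and 1.859. This mouse also had the highest peritubular myoid score of the controls (3.34 log2 CPM) and their lowest elongated spermatid score (7.50 log2 CPM). The log2 ratio of *Inhbb* to *Inhba* in MSUS 1 was 3.934, while the other 6 MSUS males lay between 4.381 and 4.717. MSUS 1 had the lowest *Inhbb* level of all mice (7.76 log2 CPM). The gaps took 0.637 and 0.57 of the range of their group, both barely past the critical value.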

How the results depend on the processing

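No paired analysis was run: control and MSUS samples are different males, and litters and cages were not used. Of the alternative values, 402 kept their direction and side of the threshold or, for counts of genes, stayed within 1.5 times, while 25 reversed (22 of them with a single mouse left out), 9 counts moved further and 4 values newly passed the threshold. The count of genes with p below 0.05 (781) was 1182 with no count filter and 1205 with the elongated spermatid score as covariate, and 534 (without MSUS 5) to 1121 (without control 10) when single mice were left out. Among the 10 genes the count was 1 (*Tgfbr3*) with the elongated spermatid covariate, beside 1205 of all 14421 genes tested. Over single mice left out it was 0 to 1. The gene was *Tgfbr3* without control 22 (beside 804 of 14532) or without MSUS 13 (beside 1023 of 14306). The *Tgfbr3* value was 0.24 with the peritubular covariate, added after seeing the data, and *Fst* and *Fstl3* then turned to −0.050 and −0.0023. In the pathway list the count was 1 with sample quality weights (*Gata4*, −0.12), beside 1045 of all 14421 genes tested. It was 2 with the elongated spermatid covariate (*Nedd4l* 0.30 and *Smad7* 0.31), beside 1205 of 14421. Over single mice left out it was 0 to 1. The genes were *Skil* without MSUS 23 (beside 873 of 14319) and *Gata4* without MSUS 26 (beside 718 of 14294). The adjusted p of the 10 genes was at least 0.447 in every fit run, and the cause of these moves was not tested.

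With single mice left out, log2 fold changes ran from −0.12 to 0.0017 for *Inhbb*, −0.061 to 0.12 for *Fst*, −0.0020 to 0.13 for *Fstl3*, −0.15 to 0.0084 for *Acvr1b*, 0.018 (without control 9) to 0.21 for *Acvr2a*, −0.099 to −0.011 (without control 24) for *Inha*, 0.093 (without control 12) to 0.25 for *Inhba* and −0.037 to 0.078 for *Smad2*. Log2 ratio differences ran from −0.34 to −0.18 for *Inha* to *Inhba*, −0.083 to 0.054 for *Inha* to *Inhbb*, −0.29 to −0.15 for *Inhbb* to *Inhba*, −0.088 to 0.043 for *Inha* to both β chains, −0.18 to 0.014 for β chains to binding proteins and −0.41 to −0.11 for *Acvr2a* to *Acvr2b*. The r of *Inha* with *Inhba* ran from 0.17 to 0.54, of *Inha* with *Inhbb* from −0.13 to 0.17 and of *Inhba* with *Inhbb* from −0.18 to 0.55. That of *Inha* with *Inhbb* was 0.022 with group means not removed. With scaling by library size alone, r was 0.25 for *Inha* with *Inhba*, −0.22 for *Inha* with *Inhbb* and 0.27 for *Inhba* with *Inhbb*.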
